A study of Homo sapiens with 4 samples.

Results

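The 10 genes described here encode the mTOR kinase (MTOR), the scaffold subunits of its complexes (RPTOR and RICTOR), the tuberous sclerosis complex (TSC1 and TSC2), its target RHEB, and 4 stress-induced inhibitors of mTORC1 (DDIT4, SESN1, SESN2 and SESN3). Their rows were taken by gene name, and 10 of 10 had counts, among 31907 gene names in all. RNA was sequenced from HGC-27, an established human gastric cancer line, in 2 libraries of cells given PBS and 2 libraries of cells given 200 ng/ml recombinant IL-17B (rIL-17B), all collected at 48 h. The comparison asks which transcripts differ after exposure to this cytokine. Nothing in the labels says whether the libraries of a group came from separate cultures, so the p-values measure only the spread between these libraries, which may be technical.

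mTOR is a serine/threonine kinase that joins growth factor and nutrient signals to growth. In mTORC1 it is bound by raptor (RPTOR), phosphorylates S6 kinases and 4E-BPs to raise translation, and holds autophagy back through ULK1. In mTORC2 it is bound by rictor (RICTOR) and phosphorylates AKT and SGK1. RHEB in its GTP-bound form activates mTORC1 at the lysosome, and the TSC1-TSC2 complex switches RHEB off. DDIT4 (REDD1) acts through the TSC complex, whereas sestrins restrain mTORC1 through GATOR2, with sestrin 2 serving as a leucine sensor. Much of this pathway is controlled by phosphorylation and localization, which transcript counts do not measure.

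The libraries held between 12888029 and 17555879 counts on named genes. The value of each gene is its count per 1000000 counts of the library (CPM), and the level that 3 counts allow, the floor of detection, was between 0.171 and 0.233 CPM. All 10 genes lay far above it, the lowest count being 218, and intervals and floors cover counting error only because PCR copies of 1 molecule were counted separately. rIL-17B replicate 1 stood apart from the other libraries: between 2771 and 3609 of 16361 genes differed at least 2-fold (with 0.5 CPM added to each value) between it and each other library, against 78 to 292 genes between the other libraries. The 7 mesenchymal markers examined (such as VIM, FN1 and COL1A2) summed to 50658 and 49976 CPM with PBS, to 914 CPM in rIL-17B replicate 1 and to 42347 CPM in replicate 2, and the 7 epithelial markers (such as EPCAM, KRT8 and KRT18) to 805, 815, 1859 and 1032 CPM in the same order. FN1 made up most of the mesenchymal sum with PBS, at 33131 and 32458 CPM, and had 149 CPM in rIL-17B replicate 1. VIM fell less there, with 727, 706, 280 and 615 CPM in the same order, as did CDH2, with 125, 130, 55.8 and 112 CPM. KRT8 and KRT18 made up most of the epithelial sum, 1457 and 355 CPM of it in rIL-17B replicate 1. KRT19 had 47, 43, 1 and 58 counts and CLDN4 6.73, 8.38, 6.64 and 5.92 CPM. The epithelial cadherin CDH1, a defining marker, had only 7 to 11 counts in each library. The 7 monocyte and leukocyte markers, examined because the labels' library protocol mentions monocytes, summed to between 8.55 and 10.4 CPM, and PTPRC, LYZ, ITGAM and FCGR3A were at 0 in rIL-17B replicate 1. CSF1R went the other way, with 3.90, 5.59, 8.14 and 6.15 CPM in the same order, and made up most of the sum in rIL-17B replicate 1. The part of this difference between libraries in the results below was not tested, and fitted fold changes are given with and without rIL-17B replicate 1. Percent changes below use CPM by library total, whereas the fitted fold changes use TMM scaling. The TMM factor of rIL-17B replicate 1 was 1.07, which lowers the values of that library relative to its CPM. In bulk RNA, fewer cells of a type and less RNA per cell cannot be told apart.

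Per kilobase of the longest protein-coding transcript, DDIT4 and RHEB had the highest levels of the 10 genes in the PBS libraries. DDIT4 had 69.3 ± 1.58 CPM per kb and RHEB 63.4 ± 4.15 CPM per kb (SD, n = 2 libraries here and below). SESN2 followed with 21.6 ± 0.152 CPM per kb, then TSC2 with 15.3 ± 0.681, SESN3 with 14.7 ± 1.71 and MTOR with 13.4 ± 0.0589 CPM per kb. RPTOR had 9.99 ± 1.43 and RICTOR 9.18 ± 0.127 CPM per kb. TSC1 with 7.02 ± 0.161 and SESN1 with 5.72 ± 0.0487 CPM per kb were lowest. The PBS ranges of TSC2 and SESN3 overlapped, as did those of RPTOR and RICTOR, so the order within these pairs is not settled, while the other neighbours in the order did not overlap. With the union of all annotated exons as the length, TSC2 dropped below RPTOR, to 4.95 ± 0.220 CPM per kb, its exon union being 19626 bases against 6344 for the longest coding transcript, and TSC1 became the lowest, with 3.48 ± 0.0795 CPM per kb. In the rIL-17B libraries RHEB had 77.4 ± 10.9 and DDIT4 69.0 ± 8.23 CPM per kb, with overlapping ranges, and MTOR with 17.9 ± 3.80 CPM per kb overlapped SESN2 with 16.9 ± 4.30 CPM per kb. The mRNAs of the small GTPase and of the stress-induced inhibitor were thus more abundant per length than those of the large kinase and scaffold proteins in every library.

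**Figure D1:**
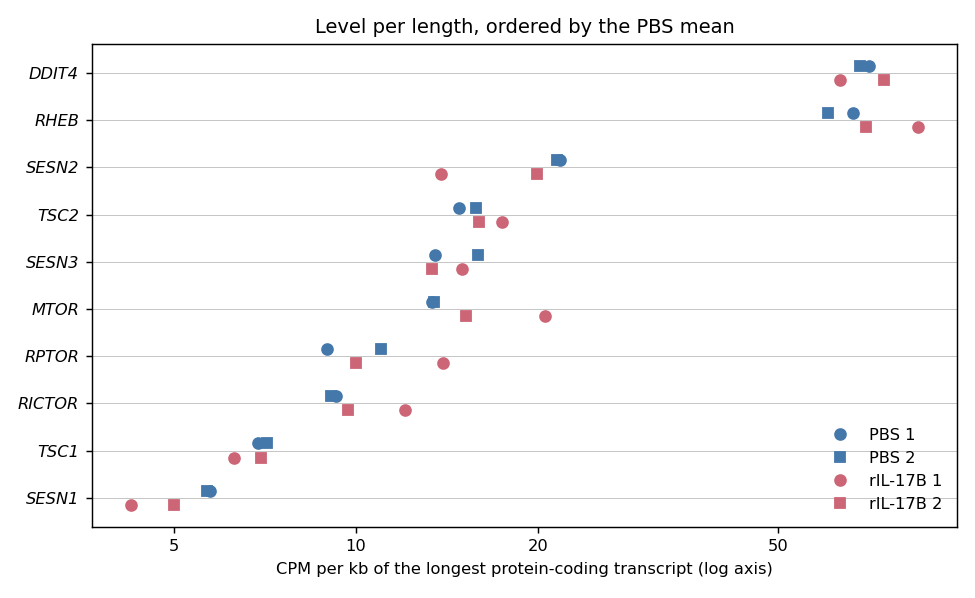
Level of each gene in each library as CPM per kb of its longest protein-coding transcript, on a log axis, with genes ordered by the PBS mean. DDIT4 and RHEB sit above 60 CPM per kb in all 4 libraries, and SESN1 is lowest in all of them.

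Promoter sequences are shown for MTOR and SESN2, the genes with the largest positive and negative fold changes of the 10, and for DDIT4, the textbook target of hypoxia and of the integrated stress response. RefSeq promoters (GRCh38.p14, 250 bases before to 50 after a start) were given for all 10 genes, 13 in all. Each line below runs 5′ to 3′ from 250 to 51 bases before the start, with capitals for any of the motifs searched on both strands, which were the E-box CACGTG, the C/EBP-ATF element TGATGNAA, the forkhead motif GTAAACA, and ACGTG, the core of the hypoxia response element, which is also part of the E-box.
MTOR, chr1:11262602-11262801, minus strand: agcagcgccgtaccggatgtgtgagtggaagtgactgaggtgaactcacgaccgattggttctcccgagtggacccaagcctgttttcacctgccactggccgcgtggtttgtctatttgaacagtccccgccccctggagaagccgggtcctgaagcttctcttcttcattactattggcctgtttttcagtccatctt
SESN2, chr1:28259268-28259467, plus strand: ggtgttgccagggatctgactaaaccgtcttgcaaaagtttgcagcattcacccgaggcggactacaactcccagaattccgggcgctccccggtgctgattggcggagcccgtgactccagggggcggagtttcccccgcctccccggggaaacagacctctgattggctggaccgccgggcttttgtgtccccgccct
DDIT4, chr10:72273674-72273873, plus strand: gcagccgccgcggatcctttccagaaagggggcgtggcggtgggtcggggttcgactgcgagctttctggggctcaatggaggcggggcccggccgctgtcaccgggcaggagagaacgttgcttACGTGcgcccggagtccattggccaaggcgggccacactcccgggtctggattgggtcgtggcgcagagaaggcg
The DDIT4 promoter held ACGTG once, at position -125 from the start, and the windows of MTOR and SESN2 held none of the 4 motifs. ACGTG was found in 4 of the 13 promoters, 1 each of DDIT4, RHEB, RICTOR and TSC2, and in 21.4% of all 35116 promoters. The E-box and the C/EBP-ATF element were each found in 1 of the 13 promoters, that of TSC2, where they overlap, and in 7.26% and 3.62% of all promoters. The forkhead motif was in none of the 13 and in 3.42% of all promoters. A match describes only the letters in these windows.

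None of the 10 genes passed the threshold between rIL-17B and PBS, and their differences ran in both directions. In edgeR's quasi-likelihood test over 16361 genes, 0 of the 10 passed a Benjamini-Hochberg adjusted p of 0.05, with 0.0% of all genes called, and 0 of the 10 had an unadjusted p under 0.05, against 1.38% of all genes. DESeq2 also called 0 of the 10. Log2 fold changes lay between -0.42 for SESN2 and 0.33 for MTOR, with a median of -0.01 beside a median of -0.03 over all genes tested, and 5 were positive and 5 negative. For 6 of the 10 genes the groups did not overlap. MTOR, RICTOR, TSC2 and RHEB were higher in both rIL-17B libraries, and SESN1 and SESN2 were lower in both. Such a separation was seen for 59.0% of all genes (31.5% higher and 27.5% lower), so 6 of 10 is near the background, and 2 libraries against 2 cannot give an exact two-sided permutation p under 0.33. With TMM-scaled CPM the same 6 genes did not overlap, against 58.9% of all genes (28.6% higher and 30.3% lower). In CPM by library total, rIL-17B replicate 2 lay between the PBS libraries and rIL-17B replicate 1 for these 6 genes. It did so for 54.3% of all genes, which is 8877 of the 9655 genes whose groups did not overlap. TMM-scaled, TSC2 had replicate 2 above replicate 1, at 104 and 103 CPM. No gene of the 10 was 2-fold from the PBS mean in rIL-17B replicate 1, where 21.2% of all genes were, or in replicate 2, where 0.636% were. The median absolute log2 difference between the 2 libraries of a group was 0.05 with PBS and 0.27 with rIL-17B for the 10 genes, beside 0.12 and 0.40 over all genes.

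**Figure D2:**
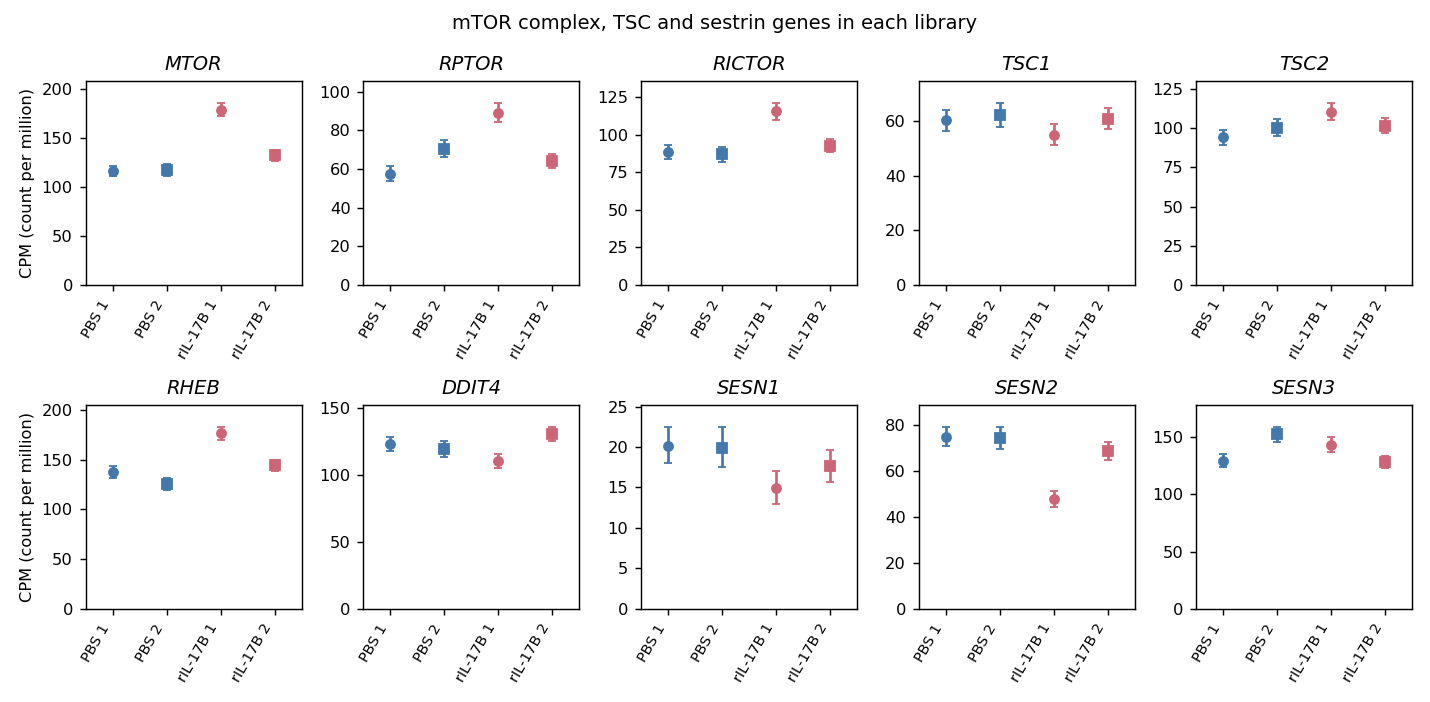
CPM of each gene in each of the 4 libraries, with the axis of each panel starting at 0 and bars giving the 95% Poisson interval of the count. For MTOR, RICTOR and RHEB the rIL-17B replicate 1 point is the highest, and for SESN1 and SESN2 it is the lowest, with rIL-17B replicate 2 between it and the PBS points.

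The answer for the 10 genes changed with which rIL-17B library was used. Without rIL-17B replicate 1, 0 of the 10 passed the threshold in edgeR's test, against 2.95% of all genes called (0.643% higher and 2.3% lower). Without rIL-17B replicate 2, 8 of the 10 passed, 4 higher (MTOR, RPTOR, RICTOR and RHEB) and 4 lower (TSC1, DDIT4, SESN1 and SESN2), against 55.1% of all genes called (23.2% higher and 31.9% lower). In both of these fits 1 rIL-17B library stands alone and is assumed to vary as the PBS libraries do, so they compare that library with PBS rather than the treatment with its control.

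**Figure D3:**
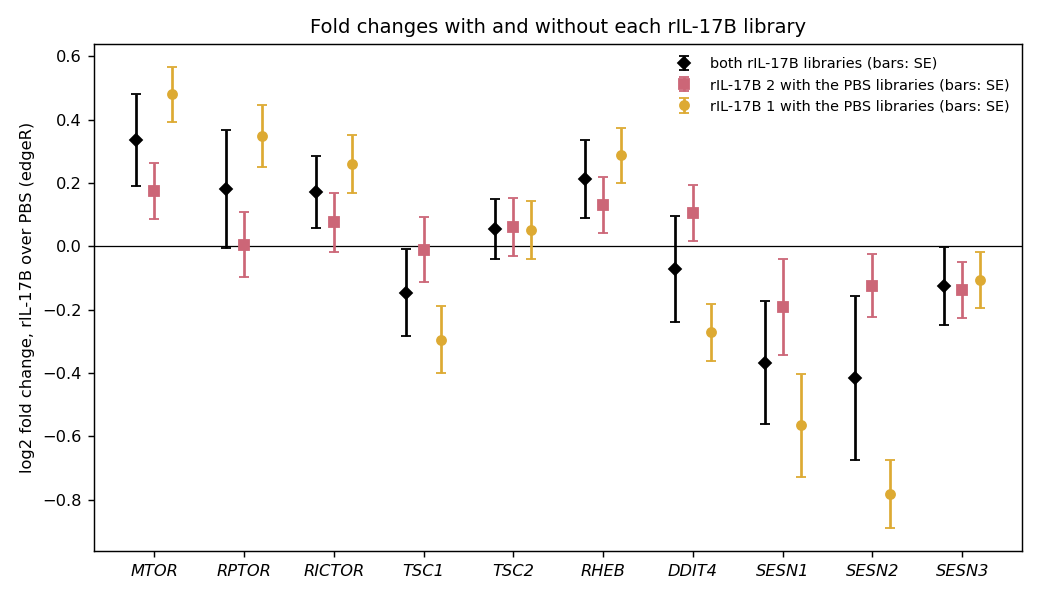
Log2 fold change of each gene from edgeR with its standard error, for all 4 libraries (diamonds), for rIL-17B replicate 2 with the PBS libraries (squares) and for rIL-17B replicate 1 with the PBS libraries (circles). The circles lie farther from 0 than the squares for 8 of the 10 genes, and for DDIT4 they lie on opposite sides of 0.

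Among the kinase and its scaffolds, MTOR had the largest positive fold change of the 10 genes. MTOR (ENSG00000198793.12, chr1:11106535-11262507 on GRCh38, minus strand) had 116 and 117 CPM in the PBS libraries, 179 CPM in rIL-17B replicate 1 and 132 CPM in replicate 2. Both treated libraries were above both controls, which differed by less than counting error. The PBS mean was 116 ± 0.511 CPM, the rIL-17B mean was 155 ± 32.9 CPM, and the log2 fold change was 0.33 (SE 0.15, adjusted p = 0.661 in edgeR's test, unadjusted p = 0.089). Without rIL-17B replicate 1 the log2 fold change was 0.18 (SE 0.09, adjusted p = 0.357 in edgeR's test, unadjusted p = 0.0474), and without rIL-17B replicate 2 it was 0.48 (adjusted p = 1.48e-07 in edgeR's test). The antisense gene MTOR-AS1, which shares 220 exon bases with MTOR, had 0 counts in every library, and the other genes inside the MTOR locus had at most 3 counts.

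RPTOR (ENSG00000141564.14, chr17:80544819-80966371, plus strand), the scaffold that recruits mTORC1 substrates, had 57.5 and 70.5 CPM in the PBS libraries, 89.3 CPM in rIL-17B replicate 1 and 64.2 CPM in replicate 2. The second treated library lay between the controls. The 95% Poisson intervals of the PBS libraries, 53.9 to 61.4 and 66.02 to 75.3 CPM, did not overlap, so these controls differed by more than counting error. The log2 fold change was 0.18 (SE 0.19, adjusted p = 0.681 in edgeR's test), and without rIL-17B replicate 1 it was 0.00 (SE 0.10, adjusted p = 0.994).

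RICTOR (ENSG00000164327.12, chr5:38937919-39074408, minus strand), the scaffold of mTORC2, had 88.5 and 86.7 CPM in the PBS libraries, 115 CPM in rIL-17B replicate 1 and 92.6 CPM in replicate 2. The treated libraries were both above the controls, replicate 1 by 31.7% and replicate 2 by 5.66% of the PBS mean in CPM by library total. For rIL-17B replicate 2 the 95% Poisson interval, 88.1 to 97.2 CPM, overlapped those of both controls. TMM-scaled, RICTOR had 91.2 and 88.4 CPM in the PBS libraries, 108 CPM in rIL-17B replicate 1 and 94.6 CPM in replicate 2. Its fitted log2 fold change was 0.17 (SE 0.11, adjusted p = 0.661 in edgeR's test), and 0.08 (SE 0.09, adjusted p = 0.817) without rIL-17B replicate 1. The receptor gene OSMR on the opposite strand shares 229 exon bases with RICTOR. OSMR had 3306 and 2666 counts in the PBS libraries, 1748 in rIL-17B replicate 1 and 3406 in replicate 2. Reads in the shared bases could belong to either gene, and their part in the RICTOR value was not tested.

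The balance between the scaffolds had near-equal means in the groups. The ratio of RPTOR to RICTOR per length was 0.969 and 1.21 with PBS and 1.15 and 1.03 in rIL-17B replicates 1 and 2. The group means, 1.09 ± 0.171 and 1.09 ± 0.0848, differed by less than the spread between replicates. This ratio is taken within a library and so does not depend on library scaling.

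Of the TSC genes, TSC2 had the log2 fold change nearest to 0 of all 10 genes. TSC2 (ENSG00000103197.17, chr16:2047465-2089487, plus strand) encodes tuberin, the GTPase-activating subunit for RHEB, and had 94.1 and 100 CPM in the PBS libraries, 111 CPM in rIL-17B replicate 1 and 102 CPM in replicate 2. In CPM by library total both treated libraries were above the controls, replicate 2 by a margin within counting error. The 95% Poisson intervals of rIL-17B replicate 1 and PBS replicate 2, 105 to 116 and 94.8 to 106 CPM, overlapped as well. TMM-scaled, TSC2 had 97.0 and 102 CPM in the PBS libraries, 103 CPM in rIL-17B replicate 1 and 104 CPM in replicate 2. Its log2 fold change was 0.05 (SE 0.09, adjusted p = 0.768 in edgeR's test), and 0.06 (SE 0.09, adjusted p = 0.850) without rIL-17B replicate 1. Reads at its ends could also belong to PKD1 and NTHL1 on the opposite strand, which share 778 and 402 exon bases with it. PKD1 had 2746 and 2659 counts in the PBS libraries, 1426 in rIL-17B replicate 1 and 2804 in replicate 2.

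TSC1 (ENSG00000165699.14, chr9:132891348-132946874, minus strand) encodes hamartin, which stabilizes tuberin, and had 60.2 and 62.2 CPM in the PBS libraries, 54.8 CPM in rIL-17B replicate 1 and 60.8 CPM in replicate 2. The groups overlapped, and only rIL-17B replicate 1 lay below both controls. In the fit, the log2 fold change was -0.15 (SE 0.14, adjusted p = 0.672 in edgeR's test), and -0.01 (SE 0.10, adjusted p = 0.983) without rIL-17B replicate 1. GFI1B, which shares 349 exon bases with TSC1 on the opposite strand, had 298 and 236 counts in the PBS libraries, 3 in rIL-17B replicate 1 and 262 in replicate 2. The part of GFI1B reads in the TSC1 value was not tested. The ratio of TSC1 to TSC2 per length was 0.466 and 0.452 with PBS and 0.361 and 0.436 in rIL-17B replicates 1 and 2. Both treated values were below both controls, with means of 0.459 ± 0.0099 and 0.398 ± 0.0534. The difference rested mostly on replicate 1, as replicate 2 was close to PBS replicate 2. Counting error of this ratio was not computed.

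RHEB (ENSG00000106615.9, chr7:151466012-151520120, minus strand), the GTPase that activates mTORC1, had 138 and 125 CPM in the PBS libraries, 177 CPM in rIL-17B replicate 1 and 145 CPM in replicate 2. Both treated libraries exceeded both controls, by 34.3% and 9.95% of the PBS mean in CPM by library total. The 95% Poisson intervals of rIL-17B replicate 2 and PBS replicate 1, 139 to 150 and 132 to 143 CPM, overlapped. TMM-scaled, RHEB had 142 and 128 CPM in the PBS libraries, 165 CPM in rIL-17B replicate 1 and 148 CPM in replicate 2. A log2 fold change of 0.21 was fitted (SE 0.12, adjusted p = 0.661 in edgeR's test), and one of 0.13 (SE 0.09, adjusted p = 0.553) without rIL-17B replicate 1. The pseudogene RHEBP2 had between 294 and 462 counts per library against 1616 to 2581 for RHEB, and reads shared between them could have been split, so that the RHEB level is uncertain by that share.

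The 4 stress-induced inhibitors differed in which libraries were high or low, and none passed the threshold with all 4 libraries. DDIT4 (ENSG00000168209.4, chr10:72273920-72276036, plus strand), which is induced by hypoxia and DNA damage, had 123 and 119 CPM in the PBS libraries, 110 CPM in rIL-17B replicate 1 and 131 CPM in replicate 2. The treated libraries lay on opposite sides of the controls, replicate 1 below by 8.9% of the PBS mean and replicate 2 above by 7.89%, in CPM by library total. TMM-scaled, DDIT4 had 127 and 121 CPM in the PBS libraries, 103 CPM in rIL-17B replicate 1 and 134 CPM in replicate 2. Over all libraries the log2 fold change was -0.07 (SE 0.17, adjusted p = 0.824 in edgeR's test), and its sign turned to 0.11 (SE 0.09, adjusted p = 0.676) without rIL-17B replicate 1. The antisense gene DDIT4-AS1, which shares 847 exon bases with DDIT4, had 0 counts in every library. Genes at 0 are not listed, so this 0, like that of MTOR-AS1, may also mean a name missing from the annotation used.

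SESN2 (ENSG00000130766.4, chr1:28259527-28282491, plus strand), which binds leucine and is induced by amino acid and ER stress, had 75.1 and 74.3 CPM in the PBS libraries, 47.8 CPM in rIL-17B replicate 1 and 68.8 CPM in replicate 2. Both treated libraries were below the controls, by 36.1% and 7.97% of the PBS mean. For rIL-17B replicate 2 the 95% Poisson interval, 64.9 to 72.7 CPM, overlapped those of both controls. The log2 fold change of -0.42 (SE 0.26, adjusted p = 0.661 in edgeR's test) was the most negative of the 10. It was -0.12 (SE 0.10, adjusted p = 0.654) without rIL-17B replicate 1 and -0.78 (SE 0.11, adjusted p = 1.49e-12) without rIL-17B replicate 2.

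SESN1 (ENSG00000080546.13, chr6:108986437-109094819, minus strand), a FOXO target, had 20.2 and 19.9 CPM in the PBS libraries, 14.9 CPM in rIL-17B replicate 1 and 17.6 CPM in replicate 2. The treated libraries were both lower, by 25.7% and 12.3% of the PBS mean. It rested on 218 to 321 counts per library, and the 95% Poisson interval of rIL-17B replicate 2, 15.7 to 19.7 CPM, overlapped those of both controls. The log2 fold change was -0.37 (SE 0.19, adjusted p = 0.661 in edgeR's test), and -0.19 (SE 0.15, adjusted p = 0.640) without rIL-17B replicate 1.

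SESN3 (ENSG00000149212.11, chr11:95165513-95232541, minus strand), a FOXO target, had 129 and 152 CPM in the PBS libraries, 143 CPM in rIL-17B replicate 1 and 128 CPM in replicate 2. The groups overlapped, and the PBS intervals of 124 to 135 and 146 to 159 CPM did not, so that the controls again differed by more than counting error. The log2 fold change was -0.12 (SE 0.12, adjusted p = 0.678 in edgeR's test), and -0.14 (SE 0.09, adjusted p = 0.530) without rIL-17B replicate 1.

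Within the sestrins, and with the longest coding transcript as length, SESN2 made up the largest share of transcripts per length in 3 of the 4 libraries. Its share was 53.0% and 49.9% with PBS and 41.8% and 52.0% in rIL-17B replicates 1 and 2. SESN3 had 32.9% and 36.9% with PBS and 45.3% and 34.9% with rIL-17B, and was larger than SESN2 only in rIL-17B replicate 1. With the exon union as length SESN2 was the larger there too, with 45.6% against 44.7%, so the order in that library depends on the length used. SESN1 had the smallest share, between 12.9% and 14.0%. rIL-17B replicate 2 lay within the PBS range for SESN2 and SESN3, so the groups overlapped. Of the counts alone, SESN2 had 23.2% of 3011 sestrin counts in rIL-17B replicate 1 (95% Wilson interval 21.7% to 24.7%) and between 30.2% and 33.5% in the other libraries.

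The genes with profiles most like those of MTOR and SESN2 were outside the pathway lists. This was likely from the start, because the lists hold only 74 genes. Likeness was measured as the Euclidean distance between log2(CPM + 0.5) values, each centred on its mean over the 4 libraries, among 9988 other genes with a mean of at least 10 CPM. The nearest to MTOR were IK (distance 0.011), SRPK1 (0.013) and FBXO5 (0.014). IK had 91.3 and 91.6 CPM in the PBS libraries, 141 CPM in rIL-17B replicate 1 and 104 CPM in replicate 2. The nearest to SESN2 were CALCOCO1 (0.021), SIK3 (0.024) and SUSD1 (0.029). CALCOCO1 had 91.4 and 90.0 CPM in the PBS libraries, 58.8 CPM in rIL-17B replicate 1 and 84.8 CPM in replicate 2. Between 4 points such distances describe these libraries only.

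The wider pathway was read from 9 lists with 74 genes, of which 71 were tested. None of the 71 passed the threshold in edgeR's test, with 0.0% of all genes called, and 0 had an unadjusted p under 0.05, against 1.38% of all genes. DESeq2 called 0 as well. Of the 71 log2 fold changes, 39 were positive (54.9%, beside 47.4% of all genes) and 32 negative, with a median of 0.07 beside -0.03 over all genes. Without rIL-17B replicate 1, 58.3% of 72 were positive, beside 49.1% of the 16361 genes, with medians of 0.02 and 0.00. The 72 include EIF4EBP3, which is not among the 16361 genes tested with all 4 libraries. The counts of positive values in the lists below are to be read against these shares. Groups did not overlap for 45 of the 71, 29 higher and 16 lower, which is to be read against the 59.0% of all genes. Without rIL-17B replicate 1, 2 of the 72 genes then tested passed, against 2.95% of all genes, and without rIL-17B replicate 2 it was 49 of 72, against 55.1%.

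SGK1 and GRB10, the genes that passed without rIL-17B replicate 1, were both in the list of substrates of the complexes. They differed in opposite directions, and the share of pathway genes passing was near that of all genes. That fit sets a lone treated library against PBS. SGK1, a kinase phosphorylated by mTORC2, had 426 and 403 CPM in the PBS libraries, 793 CPM in rIL-17B replicate 1 and 512 CPM in replicate 2. Both treated libraries were higher, with a log2 fold change of 0.57 over all libraries (SE 0.22, adjusted p = 0.661 in edgeR's test) and 0.30 without rIL-17B replicate 1 (adjusted p = 0.0115). GRB10, an adaptor phosphorylated by mTORC1 that dampens insulin signalling, had 117 and 150 CPM in the PBS libraries, 38.7 CPM in rIL-17B replicate 1 and 103 CPM in replicate 2. It was lower in both treated libraries, with a log2 fold change of -0.96 over all libraries (SE 0.58, adjusted p = 0.661 in edgeR's test) and -0.38 without rIL-17B replicate 1 (adjusted p = 0.00283), and its controls also lay apart from each other.

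The other parts of the pathway had these values, none past the threshold over all libraries or without rIL-17B replicate 1. Among the partners of the complexes, 6 of 8 log2 fold changes were positive (median 0.25), and 5 of 8 without rIL-17B replicate 1 (median 0.10). TTI1, which helps to assemble mTOR, had 37.2 and 36.4 CPM in the PBS libraries, 65.7 CPM in rIL-17B replicate 1 and 44.3 CPM in replicate 2, which gave a log2 fold change of 0.50 (SE 0.19), and 0.26 (SE 0.11) without replicate 1. DEPTOR, an inhibitory subunit, had 9.87 and 10.7 CPM in the PBS libraries, 4.38 CPM in rIL-17B replicate 1 and 8.83 CPM in replicate 2, which gave a log2 fold change of -0.69 (SE 0.47), and -0.22 (SE 0.20) without replicate 1. TTI1 was thus above, and DEPTOR below, both controls in each treated library.

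Among the neighbours of TSC and RHEB, RHEBL1, a close relative of RHEB, had 2.07 and 2.17 CPM in the PBS libraries, 3.42 CPM in rIL-17B replicate 1 and 2.68 CPM in replicate 2. DDIT4L, the paralogue of DDIT4, had 4.15 and 3.49 CPM with PBS and 4.50 CPM in rIL-17B replicate 2, while replicate 1 held 1 count. Of the Rag GTPases and Ragulator, which bring mTORC1 to the lysosome, 3 of 9 log2 fold changes were positive (median -0.04), and 4 of 9 without rIL-17B replicate 1 (median -0.02). LAMTOR5 of Ragulator had 24.8 and 22.2 CPM in the PBS libraries, 36.1 CPM in rIL-17B replicate 1 and 26.3 CPM in replicate 2. RRAGD was scarce, with 1.70 and 1.71 CPM with PBS, 2 counts in rIL-17B replicate 1 and 1.03 CPM in replicate 2.

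In GATOR1, GATOR2 and KICSTOR, through which amino acids are sensed, 9 of 12 log2 fold changes were positive (median 0.20), but 6 of 12 without rIL-17B replicate 1 (median -0.01). The GATOR2 genes SEH1L and SEC13, whose proteins also serve the nuclear pore, had log2 fold changes of 0.29 (SE 0.12) and 0.44 (SE 0.21), and of 0.21 (SE 0.11) and 0.16 (SE 0.09) without rIL-17B replicate 1. SEC13 had 172 and 164 CPM in the PBS libraries, 294 CPM in rIL-17B replicate 1 and 189 CPM in replicate 2, both treated libraries being higher. Of the amino acid sensors and folliculin genes, 1 of 6 was positive (median -0.24), and 2 of 6 without rIL-17B replicate 1 (median -0.05). Positive in the fit over all libraries was CASTOR2, related to the arginine sensor CASTOR1, with 3.14 and 1.55 CPM in the PBS libraries, 6.64 CPM in rIL-17B replicate 1 and 4.56 CPM in replicate 2, which gave a log2 fold change of 1.16 (SE 0.49) on low counts, and 0.92 (SE 0.33) without replicate 1.

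Among the upstream kinases, the AMPK subunit gene PRKAA2 had a log2 fold change of 0.28 (SE 0.15), and 0.10 (SE 0.11) without rIL-17B replicate 1. STK11, which encodes the AMPK-activating kinase LKB1, had 33.8 and 34.9 CPM in the PBS libraries, 6.98 CPM in rIL-17B replicate 1 and 26.9 CPM in replicate 2, which gave a log2 fold change of -1.05 (SE 0.75), and -0.35 (SE 0.13) without replicate 1. Of the substrates of the complexes, 8 of 12 were positive (median 0.15), and 10 of 13 without rIL-17B replicate 1 (median 0.06).

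All 6 translation effectors had positive log2 fold changes, between 0.10 and 0.34 (median 0.24), and all 6 without rIL-17B replicate 1 (median 0.14). PDCD4, an inhibitor of eIF4A, had a log2 fold change of 0.32 (SE 0.14), and 0.16 (SE 0.10) without rIL-17B replicate 1. EIF4G1, the scaffold of the cap-binding complex, had 915 and 922 CPM in the PBS libraries, 1441 CPM in rIL-17B replicate 1 and 1023 CPM in replicate 2, and its log2 fold change was 0.34 (SE 0.19), and 0.15 (SE 0.08) without replicate 1. Among the transcription factors, FOXO3, known to act on SESN1 and SESN3, had 59.98 and 63.3 CPM in the PBS libraries, 39.8 CPM in rIL-17B replicate 1 and 55.7 CPM in replicate 2, which gave a log2 fold change of -0.43 (SE 0.25), and -0.15 (SE 0.10) without replicate 1. DDIT3, the stress factor CHOP, had 29.9 and 25.6 CPM in the PBS libraries, 8.14 CPM in rIL-17B replicate 1 and 24.5 CPM in replicate 2, which gave a log2 fold change of -0.80 (SE 0.64), and -0.19 (SE 0.13) without replicate 1. Both were below the controls in both treated libraries, as SESN1 and SESN2 were, with the lower value in rIL-17B replicate 1.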

How the data were processed

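Per the labels, 4 libraries of HGC-27 RNA were prepared by Smart-seq2, which primes on poly(A) tails and amplifies cDNA by PCR. The authors deposited raw counts per gene name, and genes at 0 are not listed. The submitters' processing notes name Bowtie2 2.2.3, HISAT2 2.1.0, TopHat2, HTSeq 0.6.0 and hg38, without their roles. Which annotation was used, and whether strand was, is not given in the sources used here. Names listed more than once (83 to 98 per library, each time with the same count) were used once, and 22 to 25 entries per library whose names had become numbers were left out, with 0.228% to 0.244% of counts. A missing gene was given a count of 0. CPM is the count divided by the total of the remaining counts (12888029 to 17555879).

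Fold changes were tested with edgeR 4.0.16 (R 4.3.3), TMM factors between 0.97 and 1.07, filterByExpr and the quasi-likelihood test, adjusted by Benjamini-Hochberg over all 16361 genes, threshold 0.05. SE is the log2 fold change divided by the square root of F. Alternatives were DESeq2 1.42.0, other normalizations and filters, the replicate number as a block, and leaving out each library. Coordinates, overlaps and lengths come from GENCODE 29 (GRCh38), promoters from RefSeq. Tables and plots were made in Python 3.11.15. Genes named beyond the 10 were, in each list, those with the smallest p and the largest absolute log2 fold change. The genes and lists were chosen with earlier results of these data known. The union of exons as a length, and the count at an unadjusted p, were added after seeing the data. The summaries of the upstream kinase and transcription factor lists are not reported here.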

Additional observations from a re-analysis of the deposited data

How the results depend on the processing

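DESeq2, upper-quartile normalization, DESeq2 size factors in edgeR, no filter on low counts and a minimum of 10 counts in every library each called 0 of the 10 genes, 0 pathway genes and 0 genes in all, as the analysis of all 4 libraries did. With the replicate block the counts were 0, 0 and 0 too, and the median log2 fold change of the 10 genes was -0.01. Whether same-numbered libraries were paired cannot be told from these counts. Deviations from the group means correlated at 0.08 across genes for same-numbered libraries. With 2 libraries per group each deviation is a single difference, and that of the rIL-17B group mainly reflects how replicate 1 stood apart. Leaving out each library gave 0 to 9489 genes in all, 0 to 8 of the 10 genes, 0 to 49 pathway genes, and a median of the 10 between -0.0274 and 0.0401. The largest counts came without rIL-17B replicate 2. Without rIL-17B replicate 1, 504 genes and 2 pathway genes passed, DDIT4 reversed to a log2 fold change of 0.11 (range -0.27 to 0.11 over the libraries left out) and DDIT4L to 0.22 (range -5.77 to 0.22, the lowest resting on 1 count and on the prior count), neither past the threshold when reversed. Of 268 recomputed fold changes of 27 genes, 240 stayed on the same side of the threshold with the same sign, 26 passed it (24 without rIL-17B replicate 2) and 2 reversed.

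Ratios per length moved with the length by construction. From counts alone, the mean RPTOR to RICTOR ratio was 0.732 with PBS and 0.734 with rIL-17B, TSC1 to TSC2 was 0.630 and 0.547, SESN1 was 8.54% and 7.73%, SESN2 31.8% and 27.6%, and SESN3 59.6% and 64.6% of sestrins. With the exon union, RPTOR to RICTOR was 0.965 with rIL-17B, TSC1 to TSC2 was 0.703 and 0.611, SESN1 was 10.1% and 9.65%, and SESN2 was 55.7% with PBS. In each fit that leaves out a library, the lone library of its group is assumed to vary like the other pair. SESN1, with 218 to 321 counts per library, had the widest counting error of the 10 relative to its level.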
